A study of Mus musculus with 12 samples.

Results

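Transcripts of 10 T cell genes were followed in Ter-119+ cells of the mouse spleen, out of 561 genes on the nCounter Mouse Immunology v1 panel. The 10 were taken by name: Cd3d, Cd3e, Cd247 and Lck, whose products form or act at the T cell receptor complex, the surface receptors Cd4, Cd5, Cd2 and Cd28, and the transcription factor genes Tcf7 and Lef1. All 10 are on the panel. The question was whether they moved in proportion to one another or apart when red cell production was stimulated.

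All mice were adult males of the F1 cross CBA x C57BL/6, 3 to 5 months old, and all spleens were taken on day 3. Normal mice were kept under standard conditions, acute blood loss mice had 0.5 to 0.8 mL of blood withdrawn from the retro-orbital sinus under isoflurane, and acute hypoxia mice spent 16 h in a hypobaric chamber at the equivalent of more than 4500 m. Magnetic selection used Ter-119, a marker of the erythroid lineage, and RNA came from 500000 cells per sample. For normal mice 3 samples were used and for each treatment 4, because the column of Normal 4 equalled the median of the other 3 normal columns plus 3 in all 561 genes. Nothing in the labels says which animal a sample came from, so p-values measure only the spread between samples, which may be technical.

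The T cell receptor is a pair of antigen-binding chains held in a complex with the CD3 chains and the zeta chain. When it binds antigen, the kinase LCK phosphorylates the cytoplasmic tails of these chains and starts the signal. CD4 and CD28 add to that signal, and TCF7 and LEF1 are DNA-binding proteins that maintain the identity of developing and resting T cells. Erythroid cells are not known to assemble this receptor. In a bulk sample, fewer cells of a type and less RNA per cell cannot be told apart.

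Total counts were 43956 to 253712 across normal, 7016 to 31006 across blood loss and 44254 to 81370 across hypoxia samples. Levels below are raw counts divided by a housekeeping factor of each sample (housekeeping-scaled counts), and their precision is limited by the raw count. The median raw count of the 547 endogenous genes was 12, 59 and 93 in Normal 1, 2 and 3, 5, 7, 3 and 11 in Acute blood loss 1 to 4, and 10, 9, 13 and 16 in Acute hypoxia 1 to 4. Of all tested genes 9.22% were called higher and 17.0% lower after blood loss, and 7.09% and 36.5% after hypoxia. Of 8 erythroid genes on the panel 6 were tested, and in each comparison with normal 3 were called higher, 1 lower and 2 neither. Tfrc, the transferrin receptor and one of those called higher, stood at 129 ± 13.6 across the normal group (SD, n = 3), 396 ± 122 across the blood loss group (SD, n = 4) and 315 ± 219.8 across the hypoxia group (SD, n = 4), and Kit and Cd59b had a raw count under 20 in all 11 samples. Markers of B cells were present in every group, and markers of some other spleen cells had low counts. No blood loss sample reached a raw count of 20 for 8 of 10 macrophage and monocyte genes or 4 of 5 dendritic cell genes. No hypoxia sample did for 7 and 4 of them, and no normal sample for 3 and 2. The summed housekeeping-scaled level of 16 B cell genes was 2084 to 4198 across normal, 1323 to 2773 across blood loss and 1368 to 2196 across hypoxia samples.

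The genes called lower after hypoxia include the neighbours Cd3d (chr9:44981769-44987052) and Cd3e (chr9:44998735-45009663) and, on another chromosome, Lck (chr4:129548344-129573641). The bases just before these 3 genes are shown, because Cd3d and Cd3e encode chains of the receptor complex, Lck encodes the kinase that acts on them, and the TCF/LEF core motif is that of the products of Tcf7 and Lef1. Sequences are from RefSeq, build GRCm38.p6, 5′ to 3′ on the strand of the gene. Bases inside the annotated gene were left out. Capitals mark the TCF/LEF cores CTTTGA and CTTTGT and the RUNX core TGTGGT on either strand, none of which overlap here.
Cd3d, chr9:44981536-44981768, plus strand: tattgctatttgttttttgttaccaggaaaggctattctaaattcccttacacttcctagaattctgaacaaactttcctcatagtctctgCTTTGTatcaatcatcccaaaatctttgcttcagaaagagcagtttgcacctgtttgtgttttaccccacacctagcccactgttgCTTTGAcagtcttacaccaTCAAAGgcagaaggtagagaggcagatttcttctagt
Cd3e, chr9:45009664-45009861, minus strand: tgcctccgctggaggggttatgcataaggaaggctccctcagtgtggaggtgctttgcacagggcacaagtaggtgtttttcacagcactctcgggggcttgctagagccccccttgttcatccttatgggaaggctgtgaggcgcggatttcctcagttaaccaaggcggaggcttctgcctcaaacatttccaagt
Lck, chr4:129573642-129573891, minus strand: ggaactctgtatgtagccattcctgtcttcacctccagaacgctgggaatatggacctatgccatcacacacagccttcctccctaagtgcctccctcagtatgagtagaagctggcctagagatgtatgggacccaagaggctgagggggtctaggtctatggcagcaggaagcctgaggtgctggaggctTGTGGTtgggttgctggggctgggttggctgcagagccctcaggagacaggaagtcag

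The Cd3d window of 233 bases held CTTTGA 2 times, once on each strand, and CTTTGT 1 time. Among the windows of the same length before 32851 listed starts, 13.2% held CTTTGA and 15.6% held CTTTGT on either strand. The Cd3e and Lck windows held neither core. The windows of Cd5 and Lef1, also scanned and not shown, held neither core and no TGTGGT. The Lck window of 250 bases held TGTGGT 1 time, as did 14.1% of all windows of that length. These are matches of letters in a short window and were not tested for binding.

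After acute hypoxia 7 of the 10 T cell genes fell, where 36.5% of all 282 tested genes fell, and none of the 10 rose, where 7.09% did. After acute blood loss 5 of the 10 fell against 17.0% of tested genes, and 1 of the 10, Cd28, rose against 9.22%. The 5 that fell after blood loss, Cd3d, Lck, Cd4, Cd5 and Tcf7, were also called lower after hypoxia. Cd3e and Lef1 were called lower after hypoxia and not after blood loss, and the 2 treatments themselves differed for them by log2 fold changes of −0.49 (adjusted p = 0.397, edgeR) and −0.41 (adjusted p = 0.643). Cd2 and Cd247 passed in neither comparison with normal. A gene was called at an adjusted p under 0.05. All 10 passed the filter of a raw count of 20 or more in at least 3 samples, and at least 2 of the 3 normal samples reached that count for each. No blood loss sample reached it for Cd3d, Cd3e, Cd4, Cd5 or Lef1. A gene could thus pass through the normal group alone, where it was high. The counts of the 10 called or lying lower, here and below, are therefore a description.

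**Figure D1:**
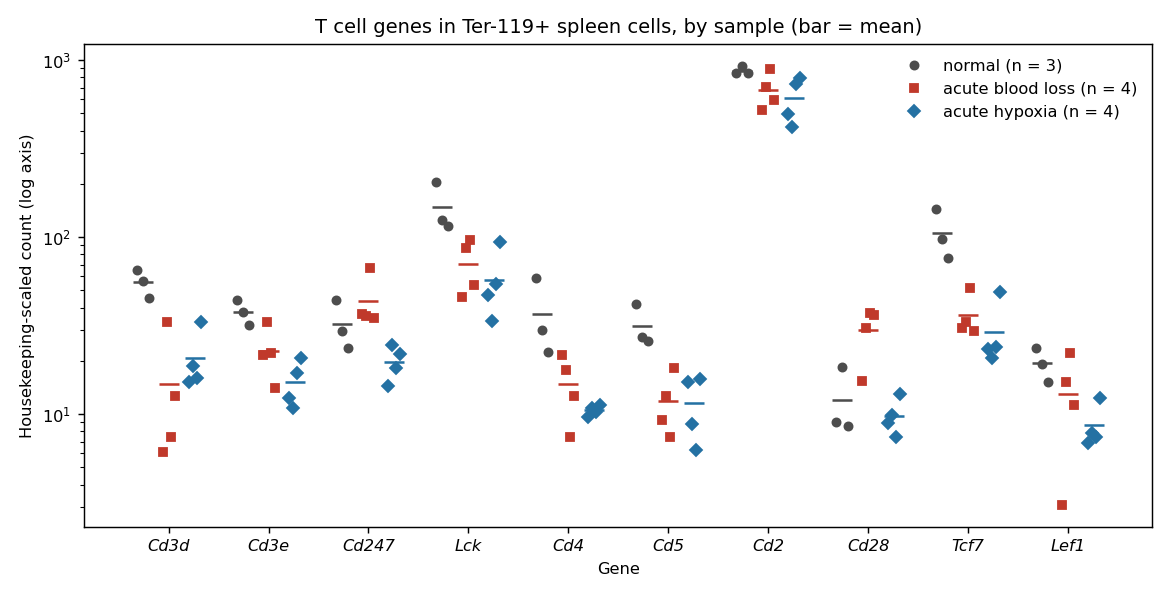
Housekeeping-scaled counts of the 10 T cell genes on a log axis, 1 point per sample, with bars at group means (3 normal, 4 acute blood loss, 4 acute hypoxia samples). Most genes sit lower in both treated groups, whereas Cd28 is highest after blood loss (mean 29.9, against 12.0 in normal samples) and Cd247 is not lower there.

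Cd3d encodes the delta chain of CD3. Its housekeeping-scaled count was 65.5, 56.7 and 45.3 in Normal 1, 2 and 3, 6.15, 33.1, 7.42 and 12.7 in Acute blood loss 1 to 4, and 15.2, 18.7, 16.0 and 33.2 in Acute hypoxia 1 to 4. Every treated sample lay below every normal sample. The log2 fold change was −1.78 after blood loss (SE 0.41, adjusted p = 0.00221, edgeR quasi-likelihood test) and −1.39 after hypoxia (SE 0.33, adjusted p = 0.00123). The raw counts behind the blood loss values were 2, 13, 1 and 9, and a raw count of 1 has an exact Poisson interval of 0.0253 to 5.57, for counting error only. A raw count of 1 was also the lowest of any gene in the 11 samples, a floor that this interval leaves out. Cd4 and Cd5 in Acute blood loss 3 and Lef1 in Acute blood loss 1 stood at the same floor.

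Cd3e encodes the epsilon chain, which pairs with the delta chain in the assembled receptor. Housekeeping-scaled counts of Cd3e were 44.1, 37.9 and 31.9 in Normal 1, 2 and 3, 21.5, 33.1, 22.2 and 14.1 in Acute blood loss 1 to 4, and 12.4, 10.8, 17.1 and 20.8 in Acute hypoxia 1 to 4. The hypoxia samples all lay below the normal samples, and Acute blood loss 2 lay within the normal range. The gene fell after hypoxia (log2 fold change −1.26, SE 0.30, adjusted p = 0.00153, edgeR) and had a log2 fold change of −0.77 after blood loss (SE 0.35, adjusted p = 0.108). With all 14 housekeeping genes, with the deposited size factors or with background subtracted it was called lower after blood loss as well (−1.08, −1.15 and −1.28).

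Lck encodes the kinase that starts the signal. On the housekeeping scale Lck had counts of 204.5, 125 and 116 in Normal 1, 2 and 3, 46.1, 86.5, 96.4 and 53.4 in Acute blood loss 1 to 4, and 46.9, 33.4, 54.2 and 94.5 in Acute hypoxia 1 to 4. No treated sample reached a normal one. Against normal its log2 fold change was −1.12 after blood loss (SE 0.35, adjusted p = 0.0211, edgeR) and −1.34 after hypoxia (SE 0.32, adjusted p = 0.00153). The blood loss call was lost on leaving out Normal 1 (−0.84), Acute blood loss 1 (−0.98) or 4 (−0.99), and with TMM factors, edgeR's trimmed mean of M values (−0.94).

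Cd247, the zeta chain of the receptor, did not follow the other receptor genes after blood loss. Scaled counts of Cd247 were 44.1, 29.6 and 23.6 in Normal 1, 2 and 3, 36.9, 35.6, 66.7 and 35.1 in Acute blood loss 1 to 4, and 14.5, 24.6, 18.3 and 21.9 in Acute hypoxia 1 to 4. The blood loss samples lay within or above the normal range, and 3 of 4 hypoxia samples lay below it. The log2 fold change was 0.36 after blood loss (SE 0.33, adjusted p = 0.416, edgeR) and −0.66 after hypoxia (SE 0.29, adjusted p = 0.0696). Between the treatments it was lower in hypoxia than in blood loss samples, without overlap (log2 fold change −1.03, SE 0.32, adjusted p = 0.0358). That call was lost under 12 of 21 alternatives, among them TMM factors (−0.74), all 14 housekeeping genes (−0.58) and the deposited size factors (−0.18), and without any one of Normal 2 (−1.03), Normal 3 (−1.03), Acute blood loss 2 (−1.09), 3 (−0.86) or 4 (−1.12), or Acute hypoxia 1 (−0.90) or 3 (−0.99).

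The zeta chain also serves receptors of natural killer cells. The summed level of 17 NK and cytotoxic cell genes was 214 to 278 housekeeping-scaled counts across normal, 157 to 252 across blood loss and 55.8 to 83.6 across hypoxia samples. In the blood loss samples all 17 had a raw count under 20, and in the hypoxia samples 16 of 17 had. Background was not subtracted from these sums, and a low raw count scales to more in the shallow blood loss samples. Of the 6 that passed the filter, 2 were called lower after blood loss, against 17.0% of all tested genes. After hypoxia 5 were, against 36.5%, and between the treatments 1 was, against 10.6%. The part of these genes in the values of Cd247 was not tested.

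Cd4, the coreceptor for MHC class II, is carried by helper T cells and by some dendritic cells. Its housekeeping-scaled count was 58.8, 29.9 and 22.5 in Normal 1, 2 and 3, 21.5, 17.8, 7.42 and 12.7 in Acute blood loss 1 to 4, and 9.65, 10.8, 10.3 and 11.3 in Acute hypoxia 1 to 4. The highest treated sample lay just under the lowest normal one. Against normal its log2 fold change was −1.18 after blood loss (SE 0.41, adjusted p = 0.0349, edgeR) and −1.74 after hypoxia (SE 0.35, adjusted p = 0.000279).

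The blood loss call of Cd4 rests on raw counts of 1 to 9, and it was lost on leaving out Normal 1 (−0.75), Normal 2 (−1.30) or Acute blood loss 2 (−1.26), 3 (−1.08) or 4 (−1.03), with TMM factors (−0.95) and without Rpl19 among the housekeeping genes (−1.14). The summed level of 5 dendritic cell genes was 149 to 176 across normal, 105 to 127 across blood loss and 88.2 to 128 across hypoxia samples, and its part in the values of Cd4 was not tested. Cd8a and Cd8b1, the coreceptor chains of cytotoxic T cells, were not tested. They had a raw count under 20 in all 8 treated samples and in Normal 1 (15 and 14). The mean housekeeping-scaled count of Cd8a was 10.8 in normal, 13.1 in blood loss and 4.66 in hypoxia samples. That of Cd8b1 was 11.1, 6.36 and 2.54 in the same order.

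Cd5 restrains receptor signalling in T cells and is also found on a subset of B cells. Housekeeping-scaled counts of Cd5 were 41.8, 27.1 and 26.03 in Normal 1, 2 and 3, 9.23, 12.7, 7.42 and 18.3 in Acute blood loss 1 to 4, and 15.2, 8.85, 6.28 and 15.8 in Acute hypoxia 1 to 4. All treated samples lay below all normal ones. The log2 fold change was −1.19 after blood loss (SE 0.43, adjusted p = 0.0412, edgeR) and −1.40 after hypoxia (SE 0.35, adjusted p = 0.00222). The blood loss call was lost without any one of the 3 normal samples (−0.97, −1.29 and −1.32) or of Acute blood loss 1, 2 or 3 (−1.06, −1.16 and −1.11), and with TMM factors (−0.92) or without Rpl19 (−1.12).

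Cd2, an adhesion receptor that in the mouse is carried by B cells as well as T cells, was the only one of the 10 with a raw count of at least 100 in all 11 samples. On the housekeeping scale Cd2 had counts of 848, 927 and 843 in Normal 1, 2 and 3, 526, 705.0, 889.9 and 596 in Acute blood loss 1 to 4, and 498, 419 and 730.3 in Acute hypoxia 1 to 3 and 788 in Acute hypoxia 4. Acute blood loss 3 reached the normal range, and the hypoxia samples did not. Against normal its log2 fold change was −0.37 after blood loss (SE 0.33, adjusted p = 0.417, edgeR) and −0.52 after hypoxia (SE 0.33, adjusted p = 0.196).

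These values of Cd2 lie near the median over the 282 tested genes, −0.26 after blood loss and −0.56 after hypoxia. Of 16 B cell genes 3 fell in the blood loss and 10 in the hypoxia comparison with normal, where 17.0% and 36.5% of all tested genes did, with median log2 fold changes of −0.57 and −1.07. Their part in the values of Cd2 was not tested.

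Cd28, the costimulatory receptor of T cells for CD80 and CD86, went the other way after blood loss. Scaled counts of Cd28 were 9.04, 18.5 and 8.57 in Normal 1, 2 and 3, 15.4, 30.5, 37.1 and 36.6 in Acute blood loss 1 to 4, and 8.96, 9.84, 7.42 and 12.9 in Acute hypoxia 1 to 4. Of the blood loss samples 3 lay above all normal samples and Acute blood loss 1 lay below Normal 2, while every hypoxia sample lay below every blood loss sample. The log2 fold change was 1.27 after blood loss (SE 0.42, adjusted p = 0.0272, edgeR) and −0.32 after hypoxia (SE 0.39, adjusted p = 0.513). Between the treatments it was −1.60, lower in hypoxia than in blood loss samples (SE 0.41, adjusted p = 0.0111). This call was lost with all 14 housekeeping genes (−1.15), the deposited size factors (−0.77) or background subtracted (−1.54) and without Acute blood loss 2 (−1.58) or 4 (−1.41).

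The raw counts of Cd28 were 8, 60 and 53 in normal samples. They were 5, 12, 5 and 26 in blood loss and 13, 10, 13 and 23 in hypoxia samples. In every treated sample the count was at or above the median raw count of the endogenous genes. In Normal 1 and Normal 3 it was below that median (12 and 93), and in Normal 2 just above it (59). The rise after blood loss was no longer called with background subtracted (log2 fold change 1.17, adjusted p = 0.109, edgeR) or without Normal 3 (1.02), Acute blood loss 2 (1.26), 3 (1.22) or 4 (1.09). On the scale of the deposited normalized counts Cd28 ran from 9.74 to 17.1 across normal, 15.1 to 34.2 across blood loss and 12.1 to 18.8 across hypoxia samples.

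Tcf7 fell by most among the 10 genes in the comparison of hypoxia with normal. Its housekeeping-scaled count was 143.5, 98.0 and 76.1 in Normal 1, 2 and 3, 30.8, 33.1, 51.9 and 29.5 in Acute blood loss 1 to 4, and 23.4, 20.7, 24.0 and 48.9 in Acute hypoxia 1 to 4. Every treated sample lay below every normal sample. Against normal its log2 fold change was −1.62 after blood loss (SE 0.36, adjusted p = 0.00183, edgeR) and −1.81 after hypoxia (SE 0.32, adjusted p = 7.29e-05), and both were called under each alternative in which the gene was tested.

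Lef1, whose product binds the same DNA motif, was called lower after hypoxia. Housekeeping-scaled counts of Lef1 were 23.7, 19.1 and 15.2 in Normal 1, 2 and 3, 3.08, 15.3, 22.2 and 11.2 in Acute blood loss 1 to 4, and 6.89, 7.87, 7.42 and 12.4 in Acute hypoxia 1 to 4. The hypoxia samples lay below the normal ones, and the blood loss samples overlapped them. The log2 fold change was −1.10 after hypoxia (SE 0.39, adjusted p = 0.0254, edgeR) and −0.68 after blood loss (SE 0.48, adjusted p = 0.285). The hypoxia call was lost under 8 of 20 alternatives, including TMM factors (−0.54), all 14 housekeeping genes (−0.95) and the deposited size factors (−0.64), and without Normal 1 (−0.96), Normal 2 (−1.08), Acute hypoxia 1 (−0.999) or Acute hypoxia 3 (−1.02).

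**Figure D2:**
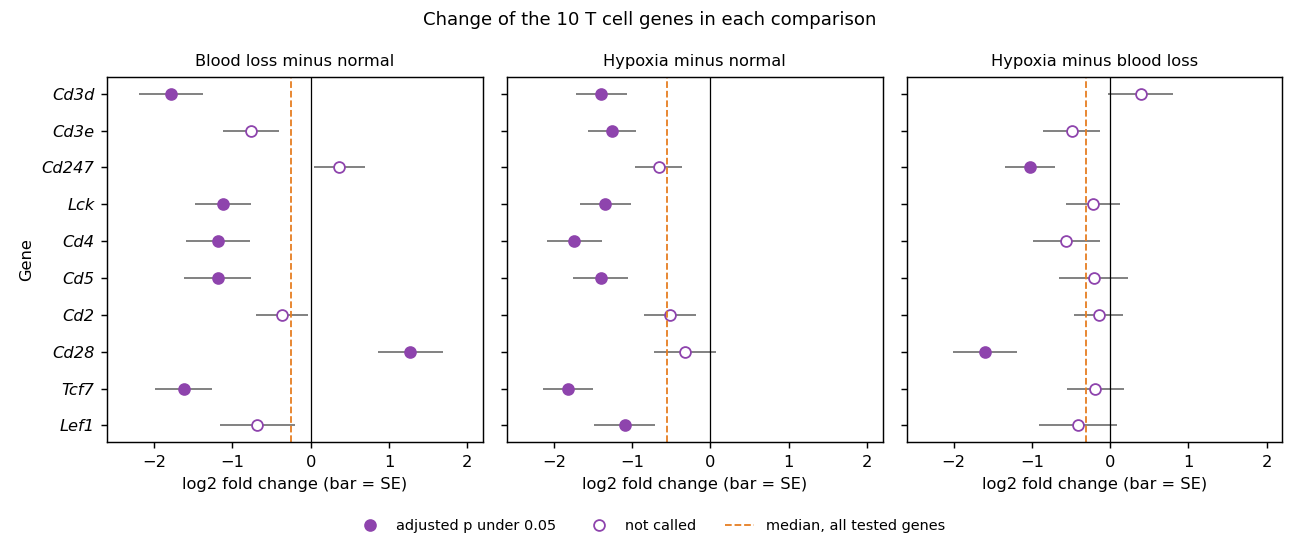
Log2 fold change of each T cell gene in the 3 comparisons, with bars of 1 SE; filled points passed an adjusted p of 0.05 and the dashed line is the median of all 282 tested genes. After blood loss Cd28 (1.27) and Cd247 (0.36) lie to the right of 0, opposite to the other 8 genes, and after hypoxia all 10 lie to the left.

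Without overlap between the groups, 5 of the 10 lay lower after blood loss and 8 after hypoxia, where 16.7% and 35.5% of all tested genes did, and none lay higher in either, where 11.3% and 8.16% did. Between the treatments 2 of the 10, Cd28 and Cd247, were called lower in hypoxia samples against 10.6% of tested genes, and none higher against 0.709%. Those 2 were also the members whose groups lay lower without overlap, against 12.8% of tested genes, and none lay higher, against 2.48% (edgeR; 2 of the 10 had an unadjusted p under 0.05, and DESeq2 called the same numbers). After hypoxia, where edgeR and DESeq2 called none of the 10 higher, 8 had an unadjusted p under 0.05. The median log2 fold change of the 10 was −0.94 after blood loss and −1.30 after hypoxia, beside −0.26 and −0.56 over the 282. The comparisons with normal share their 3 normal samples, so the overlap of their calls is given without a test.

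The number called lower after blood loss was 2 without Normal 1, and 3 without Normal 2 or without any one of the 4 blood loss samples. Cd3d and Tcf7 were called lower after blood loss, and Cd3d, Lck, Cd4 and Tcf7 after hypoxia, under each of the 21 alternatives in which they were tested.

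The scaling moved the counts as well. With TMM factors, which brought the median of all tested genes to 0.03 in both comparisons with normal, blood loss left 2 of the 10 called lower and hypoxia 4. The medians of the 10 were then −0.72 and −0.78. The hypoxia calls lost in this way were Cd3e (−0.71), Cd5 (−0.87) and Lef1 (−0.54). Of all tested genes, the calls after hypoxia were 103 lower and 20 higher in the main setting, 53 lower and 57 higher with TMM factors and 63 lower and 52 higher with the deposited size factors. After blood loss they were 48 lower and 26 higher, 37 lower and 41 higher, and 122 lower and 14 higher in the same order. Between the treatments the median of all tested genes turned from −0.30 to 0.14 when 14 housekeeping genes set the scale and to 0.54 with the deposited size factors, and neither Cd28 nor Cd247 was called there.

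Proportion among the genes was then measured without any housekeeping scaling, from raw counts within each sample. The receptor complex was taken as the sum of Cd3d, Cd3e, Cd247 and Lck, which came to 317, 810.0 and 1338 raw counts in Normal 1, 2 and 3, 36, 74, 26 and 82 in Acute blood loss 1 to 4, and 129, 89, 185 and 303 in Acute hypoxia 1 to 4. Per 10000 counts of the whole sample it was 58.4 ± 12.0 across the normal group (SD, n = 3), 30.4 ± 6.63 across the blood loss group (SD, n = 4) and 25.97 ± 7.73 across the hypoxia group (SD, n = 4), so it took a smaller share of the sample in both treated groups, without overlap with normal. Normal 1 stood at 72.1, above Normal 2 (50.3) and Normal 3 (52.7). Over all genes it also differed more from Normal 2 and 3 (chi-square per degree of freedom 52.8 and 67.6) than those did from each other (7.32).

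Lck took 53.6% ± 3.43 of the complex counts across the normal group (SD, n = 3), 46.0% ± 3.41 across the blood loss group (SD, n = 4) and 49.4% ± 7.68 across the hypoxia group (SD, n = 4). The share of Cd3e was 14.1% ± 1.55, 15.2% ± 3.92 and 13.7% ± 1.86 in the same groups, so its mean moved by less than the spread between samples. The share of Cd3d was 20.6% ± 2.22 in normal, 9.49% ± 6.19 in blood loss and 18.3% ± 2.72 in hypoxia samples. That of Cd247 was 11.7% ± 0.710 in normal, 29.3% ± 7.16 in blood loss and 18.6% ± 6.58 in hypoxia samples.

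For Cd247 every treated sample lay above every normal sample. The lowest blood loss share was 18.9% in Acute blood loss 2 (14 of 74 counts, exact binomial 95% interval 10.7 to 29.7%), and the highest normal share was 12.3% (39 of 317 counts, 8.90 to 16.4%). Since these are shares of one sum, a lower share of Cd3d raises the others. Within hypoxia, Acute hypoxia 2 stood highest at 28.1% (25 of 89 counts, 19.1 to 38.6%) and Acute hypoxia 4 lowest at 12.9% (39 of 303 counts, 9.32 to 17.2%). Acute hypoxia 4 thus lay inside the counting interval of Normal 1.

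**Figure D3:**
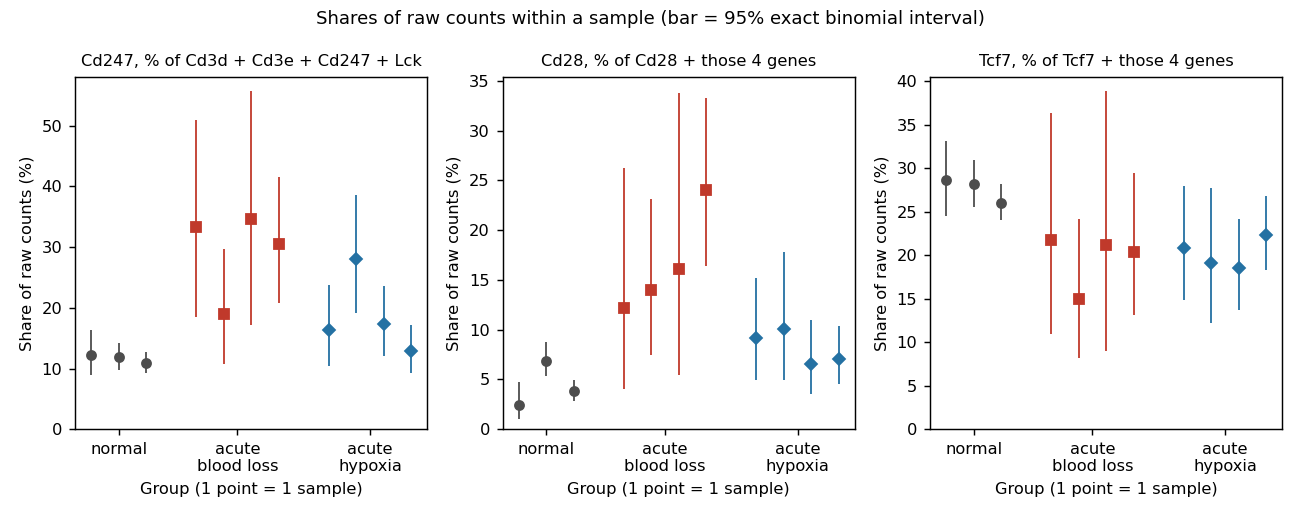
Share of raw counts in each sample, in percent, with exact binomial 95% intervals: Cd247 within the 4 receptor complex genes, and Cd28 and Tcf7 each against those 4 genes. The Cd28 share is 12.2 to 24.1% in the blood loss samples and 2.46 to 6.90% in the normal samples, and the Tcf7 share is lower in all 8 treated samples than in the 3 normal ones.

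Set against the receptor complex in the same way, the share of Cd28 was 4.39% ± 2.27 across the normal group (SD, n = 3), 16.6% ± 5.24 across the blood loss group (SD, n = 4) and 8.22% ± 1.68 across the hypoxia group (SD, n = 4). The 4 blood loss samples lay above all others, and the hypoxia samples overlapped Normal 2, which was at 6.90%. The share of Tcf7 was 27.6% ± 1.38, 19.6% ± 3.14 and 20.2% ± 1.73, with no treated sample in the normal range. Cd4 (11.4% ± 2.42, 9.63% ± 5.18 and 8.96% ± 2.04), Cd5 (10.3% ± 0.482, 7.85% ± 4.23 and 9.46% ± 3.74) and Lef1 (6.63% ± 0.452, 7.36% ± 3.31 and 7.19% ± 0.749) had overlapping shares in the 3 groups. The share of Cd2 was 76.2% ± 5.15, 81.9% ± 2.09 and 84.3% ± 2.35, and it overlapped normal after blood loss and not after hypoxia.

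The edgeR fit was repeated with the summed receptor complex counts as the library factor, which asks whether a gene changed by another factor than the complex. Of the 6 members outside the complex, Cd28 was called higher after blood loss (log2 fold change relative to the complex 2.13, SE 0.51, adjusted p = 0.000651) and the other 5 were not called. This call was kept without each of the 11 samples in turn and with background subtracted (2.34). On this scale 28.8% of the 278 other tested genes were called higher after blood loss and 2.16% lower, so a gene that rises against the complex is common on the panel.

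After hypoxia none of the 6 was called relative to the complex, where 37.4% of tested genes were called higher and 4.32% lower. Cd28 had a relative log2 fold change of 0.88 (SE 0.48, adjusted p = 0.138, edgeR), Cd2 of 0.72 (SE 0.42, adjusted p = 0.157) and Tcf7 of −0.58 (SE 0.40, adjusted p = 0.232). Without Normal 2 the value of Cd28 was 1.37 and was called (adjusted p = 0.0429). For Cd4, Cd5 and Lef1 the relative log2 fold change was −0.41, −0.15 and 0.10, with SEs of 0.46, 0.46 and 0.45. That these missed the threshold does not show that they moved with the complex. Between the treatments none of the 6 was called either, against 0.360% of tested genes higher and 0.719% lower, and Cd28 stood at −1.25 (SE 0.48, adjusted p = 0.128). This fit leaves out the counting error of the complex itself, which is largest in the blood loss samples.

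As a test of composition, the log2 ratio of each gene to the sum of the other 9 was compared over samples with a two-sided exact permutation test. In 3 normal against 4 treated samples the smallest p this design allows is 0.0571, so no comparison with normal could pass. That smallest value was reached by 6 genes after blood loss (Cd3d, Cd247, Lck, Cd2, Cd28 and Tcf7) and by 5 after hypoxia (Cd3d, Cd3e, Lck, Cd2 and Tcf7). Between the treatments Cd28 (difference −1.36) and Cd2 (0.34) reached the smallest exact p of 0.0286, which adjusted over the 30 tests came to 0.132. None of the 30 passed. Cd2 makes up most of the sum, so these ratios are largely ratios to Cd2. Without it, an alternative added after seeing the data, the groups of Cd247, Cd28 and Tcf7 did not overlap in either comparison with normal, and those of Cd3d and Lck overlapped in both. With Cd2 in the sum, Cd247, Cd28 and Lef1 had overlapped normal after hypoxia, and without it they did not. No test passed without Cd2 either.

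The spread of each gene around the complex was compared with the spread that counting alone would give. The SD over the 11 samples of the log2 ratio to the complex (without the gene itself) was 0.28 for Cd3e, 0.33 for Lck, 0.33 for Tcf7, 0.39 for Lef1, 0.45 for Cd5 and 0.47 for Cd4. Counting error alone would give 0.42, 0.30, 0.33, 0.54, 0.52 and 0.49 for these genes. Over the 11 samples together, these 6 therefore varied around the complex by about as much as counting error, or less. Cd28, at 1.04 against 0.43, and Cd247, at 0.82 against 0.35, varied by more than that. So did Cd2, at 0.40 against 0.17, and Cd3d, at 0.67 against 0.50. The samples share library depth, which enters both numbers of a ratio. The counting value averages over samples and is raised by the low counts of the blood loss samples. It can therefore hide a difference between groups. For Tcf7 the share of every treated sample lay below that of every normal sample. The SD of its log2 ratio over the treated samples alone was 0.23.

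**Figure D4:**
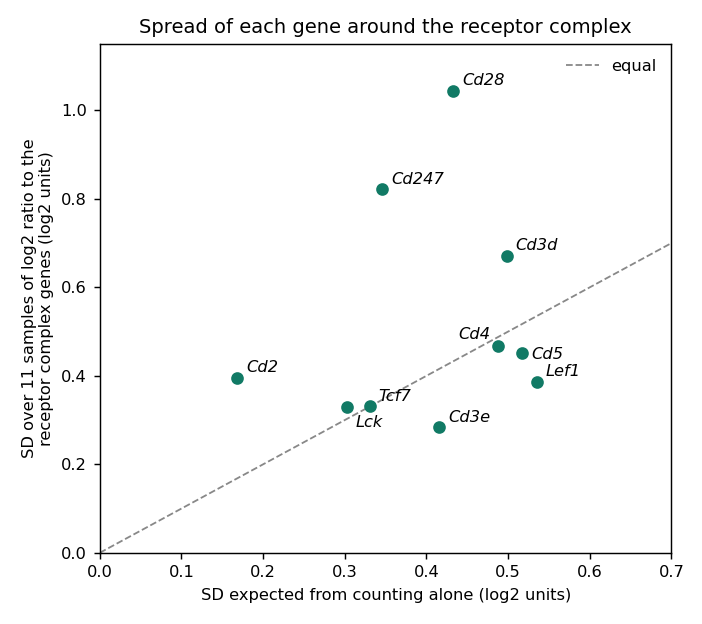
SD over 11 samples of each gene's log2 ratio to the receptor complex genes, against the SD that counting error alone would give, both in log2 units; the dashed line marks equal values. Cd28 (1.04), Cd247 (0.82), Cd3d (0.67) and Cd2 (0.40) lie above the line, and the other 6 genes lie near or below it.

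Outside the 10, the genes most nearly proportional to the complex, among 161 that reached a raw count of 20 in at least 8 samples, were Stat5b (SD 0.36), Ptprc (0.36), Il4ra (0.37), Jak1 (0.39) and Ms4a1 (0.41). The median over the 161 genes was 0.67. The 5 include Ptprc, which encodes the leukocyte protein CD45, and Ms4a1, which encodes the B cell protein CD20, so this measure does not separate T cell genes from genes of other leukocytes. Ptprc stood at 517 ± 61.3 across the normal group (SD, n = 3), 330.2 ± 97.4 across the blood loss group (SD, n = 4) and 281 ± 26.9 across the hypoxia group (SD, n = 4).

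Of 35 other T cell genes on the panel, 20 were tested. A raw count of 20 was reached in no blood loss sample by 23 of the 35 and in no hypoxia sample by 16, so a gene could pass the filter through the normal group alone, and the counts called lower are a description. After blood loss 3 were called lower and none higher, with a median log2 fold change of −0.57. They were Thy1, a surface protein of mouse T cells (−1.55, SE 0.37, adjusted p = 0.00313, edgeR), Tagap (−1.60, SE 0.35, adjusted p = 0.00125) and the activation marker gene Cd69 (−1.12, SE 0.38, adjusted p = 0.0297). The share of 3 in 20 is near the 17.0% of all tested genes. The count was 6 without Normal 1 and 5 without Acute blood loss 2.

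After hypoxia 10 of the 20 were called lower and none higher, with a median of −0.77, against 36.5% of all tested genes. With any 1 of the 11 samples left out the count was 5 to 9, so no such fit kept 10. It was 5 without Normal 2, 6 without Normal 3 and 4 with TMM factors. Those with the smallest p were Thy1 (−1.60, SE 0.30, adjusted p = 0.000180, edgeR), the interleukin 7 receptor gene Il7r (−1.86, SE 0.37, adjusted p = 0.000279) and Cd7 (−2.04, SE 0.43, adjusted p = 0.000555). Thy1 stood at 46.3 ± 15.7 across the normal group (SD, n = 3), 15.2 ± 0.281 across the blood loss group (SD, n = 4) and 14.6 ± 5.31 across the hypoxia group (SD, n = 4), and no treated sample reached a normal one. The blood loss values of Thy1 came from raw counts of 2 to 11, so the small SD there does not measure their precision.

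Between the treatments none of the 20 was called higher in hypoxia, against 0.709% of all tested genes, and 3 were called lower, against 10.6%. They were Il7r (−1.61, SE 0.44, adjusted p = 0.0172, edgeR), the inhibitory receptor gene Btla (−1.21, SE 0.30, adjusted p = 0.00965) and the receptor gene Notch1 (−1.36, SE 0.45, adjusted p = 0.0475). Il7r stood at 24.4 ± 1.90 across the normal group (SD, n = 3), 20.2 ± 6.18 across the blood loss group (SD, n = 4) and 6.54 ± 3.10 across the hypoxia group (SD, n = 4), with raw counts of 2 to 11 in blood loss samples. None of the 3 was called without Acute blood loss 2, 1 was called without Normal 2, Normal 3, Acute hypoxia 1 or Acute hypoxia 3, and none with all 14 housekeeping genes or the deposited size factors. Zap70, the kinase that binds the phosphorylated zeta chain, was not tested. It had a raw count under 20 in all 8 treated samples and in Normal 1 (11). Its mean housekeeping-scaled count was 11.5 in normal, 12.0 in blood loss and 2.92 in hypoxia samples.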

How the data were processed

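Per the labels, RNA of Ter-119+ spleen cells was hybridised to the nCounter mouse immunology panel. The deposited raw counts per gene were the values tested. The deposited normalized signal is the raw count divided by a median-of-ratios size factor per sample, as checked on the files, and the deposited log2 values are those plus 1 on the log2 scale. How the authors made the raw counts is not given in the sources used here.

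A single edgeR 4.0.16 fit (quasi-likelihood, robust, R 4.3.3) held the raw counts of all 11 samples. Samples were scaled by a geometric mean over housekeeping genes, namely the 6 of 14 whose mean raw count reached 100. A gene was tested at a raw count of 20 or more in at least 3 samples, and p-values were adjusted by Benjamini-Hochberg over all 282 such genes. A second fit used the summed counts of Cd3d, Cd3e, Cd247 and Lck as factors. Composition was tested with exact permutation tests over samples, on log2 ratios with 0.5 added to each count. The fit was tested on simulated data. Alternatives covered the scaling (TMM, other housekeeping sets, deposited size factors), DESeq2 1.42.0, the filter, background subtraction (the 25th percentile of each sample's endogenous counts), thinning to the lowest total, the twelfth column, a replicate block and each sample left out. Intervals cover counting error only.

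Named genes were the 10, the 4 other T cell genes with the smallest p in each comparison, and the 5 genes nearest in proportion to the complex. Of the other T cell genes so chosen, 1 is not reported here, and Ikzf1 after blood loss (log2 fold change −0.87, adjusted p = 0.0704) and Ctla4 between the treatments (−1.07, adjusted p = 0.0536) were not called. Other lists tested were dendritic cell (1 of 3 lower in each comparison), macrophage and monocyte (3, 5 and 3 of 6 lower), granulocyte (2, 1 and 0 of 3 higher, none lower) and erythroid genes (3, 3 and 0 of 6 higher; 1, 1 and 0 lower), over genes that passed the filter, which a gene could do through 1 group alone, in the order blood loss against normal, hypoxia against normal and hypoxia against blood loss. In that order 17.0%, 36.5% and 10.6% of all tested genes were called lower and 9.22%, 7.09% and 0.709% higher. The members and lists were chosen with earlier results of these data known. Same-numbered samples of different groups did not deviate together (r −0.30 to 0.12 over 10 pairs, against −0.18 to 0.18 over 30 other pairs), so the numbers were not taken to pair samples.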

Additional observations from a re-analysis of the deposited data

Results flagged for a closer look

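In 3 of 20 sets of 4 treated samples (10 genes in 2 treated groups) 1 sample stood far from the others by Dixon's criterion, which flags about 1 in 20 sets by chance. Cd247 stood at 66.7 housekeeping-scaled counts in Acute blood loss 3, against 35.1 to 36.9 in the other blood loss samples, from a raw count of 9 in the library with the lowest total. Tcf7 stood at 51.9 in the same sample, from a raw count of 7, against 29.5 to 33.1 in the others. Without Acute blood loss 3 the lower level of Cd247 in hypoxia than in blood loss samples was no longer called (log2 fold change −0.86). Tcf7 stood at 48.9 in Acute hypoxia 4, from a raw count of 87, against 20.7 to 24.0 in the other hypoxia samples. In that sample 9 of the 10 genes were at their highest hypoxia level, Cd247 being the exception.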

How the results depend on the processing

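Depth limits these results most in the blood loss samples, where 9 of the 10 genes, Cd2 excepted, had raw counts of 38 or less. After thinning every sample to the lowest total none of the 10 was called in any comparison (main counts 5 lower and 1 higher, 7 lower, and 2 lower), because Cd2 alone stayed tested among them, and the count relative to the complex after blood loss was 0. Thinned counts of other T cell genes were 5 after hypoxia and 1 between the treatments.

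The 10 genes called lower after blood loss numbered 2 with TMM factors and 3 without Rpl19, and the 1 called higher became 0 with background subtracted. With the replicate number as a block it was also 0 (Cd28 1.10, adjusted p = 0.0790, edgeR), the block changed no other count, and Cd28 relative to the complex was 2.05. After hypoxia 4 were lower with TMM factors. Between the treatments 1 was lower with TMM factors or without Rpl19, and 0 with all 14 housekeeping genes, the deposited size factors or background subtracted. With the deposited size factors 1 was higher there (Cd3d 1.21, adjusted p = 0.0312, edgeR).

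Other T cell genes lower after blood loss numbered 11 with the deposited size factors, 9 with 14 housekeeping genes, and 6 with 12 columns or background subtracted. After hypoxia they numbered 4 with TMM or the deposited factors and 18 with 12 columns. Between the treatments they numbered 1 with TMM, 0 with 14 housekeeping genes or the deposited factors, 12 without a filter, 5 with 12 columns and 1 with background subtracted. Relative to the complex 1 gene was called between the treatments without a filter.

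With each sample left out in turn, the genes lower after blood loss ranged from 2 to 5, higher from 0 to 1, other T cell genes from 2 to 6, and calls relative to the complex were 1 to 1. After hypoxia the ranges were 6 to 7, 5 to 9 and 0 to 1, and between the treatments 0 to 2, 0 to 4 and 0 to 0. All other counts were 0 throughout.

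These values, none called in the main setting, turned sign. After blood loss Cd247 was −0.038 with the deposited factors, and Lef1 relative to the complex −0.018 without Lck. After hypoxia Cd2 was 0.015 with TMM, and Cd28 0.30 with TMM and 0.19 with the deposited factors. Between the treatments TMM gave Lck 0.087, Cd5 0.059, Cd2 0.17 and Tcf7 0.095. There 14 housekeeping genes gave Lck 0.20, Cd5 0.25, Cd2 0.26, Tcf7 0.26 and Lef1 0.032. The deposited factors gave Cd3e 0.36, Lck 0.66, Cd4 0.26, Cd5 0.59, Cd2 0.78, Tcf7 0.66 and Lef1 0.42. Background subtraction gave Cd4 0.069, Cd5 0.63 and Tcf7 0.059, and Cd4 relative to the complex 0.19. Lef1 relative to the complex was 0.034 without Lck. Thinning gave log2 ratios to the other members of −0.23 for Cd28 after hypoxia and 0.75 for Tcf7 between the treatments. With single samples left out, the range after hypoxia was −0.58 to 0.17 for Cd28, −0.47 to 0.061 for Cd5 relative to the complex and −0.13 to 0.33 for the log2 ratio of Cd247 to the other members. Between the treatments it was −0.42 to 0.15 for Cd5 and −0.30 to 5.36e-05 for Cd2, and relative to the complex −0.39 to 0.10 for Cd4, −0.19 to 0.66 for Cd5, −0.068 to 0.15 for Tcf7 and −0.31 to 0.063 for Lef1. Apart from thinning, the cause was not tested.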
